A study of Mus musculus with 10 samples.

Results

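The 7 genes described here encode enzymes that break down fatty acids in the liver and turn the product into ketone bodies: Cpt1a, Cpt2, Acadl, Acadm, Ehhadh, Bdh1 and Acat1. They were chosen by name, with earlier results of these data known, as 7 of the 14812 gene entries in the deposited tables. Each was found by its lower-case symbol (cpt1a, cpt2, acadl, acadm, ehhadh, bdh1 and acat1). Counts of members called therefore describe these 7 genes and are no test of them as a set. The study measured RNA in 18378 single hepatocytes, the main cells of the liver parenchyma, to follow gene expression over the day and across the liver lobule. All groups were C57BL/6 male mice 3 months old, kept on chow with free access to food, with no genotype or drug compared; anaesthesia was by ketamine and xylazine in every case. They differed only in zeitgeber time (ZT), the hours since lights on, with 3 libraries each at ZT0 and ZT12 and 2 each at ZT6 and ZT18. Libraries carry the letters A, B and C. Hepatocytes were freed with collagenase and purified on Percoll, so cells that did not survive dissociation were not measured. The number of mice behind a library is not given, and p-values therefore measure the spread between libraries, which may be partly technical.

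Long-chain fatty acids enter mitochondria bound to carnitine, and the step that attaches them is the one that malonyl-CoA holds in check. Inside the mitochondrion, beta-oxidation shortens the chain by repeated rounds of dehydrogenation, hydration, a further oxidation and cleavage, while peroxisomes run a related pathway for very long and dicarboxylic chains. In fasting, the liver condenses the resulting acetyl-CoA into acetoacetate and 3-hydroxybutyrate, the ketone bodies, which other tissues burn. Many genes of the pathway are known targets of the nuclear receptor PPAR alpha. Blood flows through a lobule from the portal side (periportal) to the central vein (pericentral), and hepatocytes along this path differ in their enzymes.

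Cpt1a makes the outer-membrane carnitine palmitoyltransferase, the gate of the pathway, and lies at chr19:3322334-3385733 on the plus strand (GRCm38, GENCODE M21). Cpt2, the inner-membrane partner that releases the acyl group again, is at chr4:107903981-107923610 on the minus strand. Acadl at chr1:66830839-66863277 and Acadm at chr3:153922357-153944632, both on the minus strand, encode the acyl-CoA dehydrogenases for long and medium chains. Ehhadh, at chr16:21761287-21787807 on the minus strand, encodes the peroxisomal bifunctional enzyme that hydrates and oxidises the shortened chain. Acat1, at chr9:53580522-53610382 on the minus strand, is the mitochondrial acetoacetyl-CoA thiolase that opens ketogenesis, and Bdh1, at chr16:31422280-31458901 on the plus strand, is the dehydrogenase that turns acetoacetate into 3-hydroxybutyrate at its end. All 7 are annotated as protein coding. The GENCODE genes that overlap them are 1 pseudogene, 2 small nuclear RNA genes and 1 antisense gene, and none has an entry in the tables.

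Promoter windows are shown for 3 members: Cpt1a and Ehhadh, which were called rhythmic over the day, and Bdh1, which differed between zones. Each is the 250 bases before a RefSeq transcription start (GRCm38.p6), written 5′ to 3′ on the strand of the gene. They come from chr19:3323051-3323300 (plus strand), chr16:21787835-21788084 (minus strand) and, for the first of 2 listed starts of Bdh1, chr16:31422047-31422296 (plus strand). Capitals mark matches, on either strand, to 6 searched motifs.
Cpt1a: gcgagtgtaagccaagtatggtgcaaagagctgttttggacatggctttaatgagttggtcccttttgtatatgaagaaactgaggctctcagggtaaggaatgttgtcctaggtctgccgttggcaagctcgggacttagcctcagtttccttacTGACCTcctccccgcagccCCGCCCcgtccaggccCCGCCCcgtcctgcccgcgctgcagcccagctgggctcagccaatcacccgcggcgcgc
Ehhadh: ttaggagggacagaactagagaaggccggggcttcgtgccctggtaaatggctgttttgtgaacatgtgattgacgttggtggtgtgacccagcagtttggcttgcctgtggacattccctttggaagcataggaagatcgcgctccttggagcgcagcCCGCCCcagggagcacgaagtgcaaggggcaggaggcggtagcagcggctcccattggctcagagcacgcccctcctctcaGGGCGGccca
Bdh1: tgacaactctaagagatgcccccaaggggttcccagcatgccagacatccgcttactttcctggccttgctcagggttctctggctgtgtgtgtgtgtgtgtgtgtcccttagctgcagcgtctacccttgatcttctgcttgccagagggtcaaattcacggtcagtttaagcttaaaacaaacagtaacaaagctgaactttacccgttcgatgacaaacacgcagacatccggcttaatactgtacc
Searched were the nuclear receptor motif AGGTCA, the E-box CACGTG, the D-box TTATGNAA, the cAMP response element TGACGTCA, the GC box GGGCGG and the TATA box TATAAA. None of these letters contains another of them in full. Cpt1a had 1 nuclear receptor motif, on the minus strand and 94 bases before the start, and 2 GC boxes. In Ehhadh the capitals are 2 GC boxes, at 91 and 10 bases before the start, and in Bdh1 none of the letters searched occurred. Of 32851 promoter windows of the same length, 14% held the nuclear receptor motif, 32.7% the GC box, 12.4% the TATA box, 6.02% the E-box, 3.07% the D-box and 1.55% the cAMP response element. A match is a run of letters and not a shown binding site. Entries in the RefSeq table were found for 6 of the 7 genes, all but Acat1, which also differed between zones. GENCODE counts 16 bases of the Cpt1a window and 17 of the Bdh1 window as exon. The whole Cpt1a window lies inside the GENCODE span of the gene, which begins at chr19:3322334.

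Depth ranged from 1454623 to 7144803 UMIs (counts of distinct tagged molecules) and from 710 to 2860 cells per library. ZT12A and ZT12C were the shallowest, and mitochondrially encoded genes took from 12.9% of the UMIs in ZT12C to 24.3% in ZT12A. The 6 hepatocyte markers summed to between 35279 and 71495 CPM (UMIs after setting each library to a common total), while the sums of the endothelial, macrophage, lymphocyte, neutrophil and stellate lists stayed at or below 14.7 CPM in every library. Defining markers with no UMI in any library were 2 of 6 endothelial, 3 of 6 macrophage and 4 of 5 lymphocyte genes. The cholangiocyte list reached 32.5 CPM, mainly from Sox9, with 565 UMIs over all libraries against 3, 2 and 3 for Krt7, Krt19 and Epcam. The erythroid list ran from 72.2 to 107.9 CPM at the other times and from 99 to 361 CPM at ZT18. Alas2 alone held 69.8 to 93.6 CPM over the libraries, so the level at the other times was mainly this gene. Hbb-bs, the haemoglobin gene with the most UMIs, reached 5.25 CPM at the other times and 149 CPM at ZT18. A haemoglobin UMI was present in 6.44% of the cells of ZT18B and 1.55% of those of ZT18A, against at most 0.744% elsewhere. The last digit of the 10x sample index named in the labels was 3 for ZT0A and ZT12A, 5 for ZT0C and ZT12C, 7 for ZT0B, ZT6A, ZT6B and ZT12B, and 4 for both ZT18 libraries, so ZT18 and that index cannot be told apart.

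Levels below are UMIs summed over a library in CPM, scaled by edgeR's TMM method, and thus shares of the hepatocyte RNA that was captured. Tests were edgeR's quasi-likelihood F-tests, p-values were adjusted by Benjamini and Hochberg's method over every gene whose mean reached 3 CPM, and a change was called at 0.05. All 7 members passed that filter, with 3002 (Acadl) to 10566 (Acadm) UMIs in all. For rhythm, a 24-h cosine was fitted, and its amplitude is given as the rise of the log2 level from its daily mean to its peak. With 1 sample every 6 h, a peak time is an interpolation. In simulated data, 16% of 100 genes with an amplitude of 0.5 were called, and 89% of 100 with an amplitude of 1. A member that was not called may therefore still have a rhythm.

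Cpt1a had the largest amplitude of the 7 members. It was lowest at ZT0, at 85.9, 100.5 and 83.5 CPM in libraries A, B and C. At ZT6 the 2 libraries held 159 and 151 CPM, at ZT12 the 3 libraries held 306, 260 and 225 CPM, and at ZT18 the 2 libraries held 114 and 89.7 CPM. The ZT12 libraries thus stood above all others, the ZT6 libraries came next without overlapping any other time, and only ZT0 and ZT18 overlapped. For ZT0, ZT6, ZT12 and ZT18 in turn the means were 90 ± 9.22, 155 ± 5.82, 264 ± 40.5 and 102 ± 16.8 CPM (SD, n = 3, 2, 3 and 2). The ZT12 mean was 2.93 times that of ZT0. The rhythm had an amplitude of 0.83 with a fitted peak at ZT10.6 (adjusted p = 0.00187, edgeR).

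Ehhadh was highest at ZT18 and lowest at ZT6. In ZT6A and ZT6B it stood at 72.9 and 57.2 CPM, and in ZT18A and ZT18B at 197 and 161 CPM. The ZT0 libraries spread widely, at 175, 82.7 and 121 CPM, while the ZT12 libraries held 91.9, 95.3 and 55.8 CPM. Both ZT18 libraries were above all ZT6 and ZT12 libraries, but ZT0A lay between them. In the same order of times the means were 126 ± 46.1, 65 ± 11.1, 81 ± 21.9 and 179 ± 25.5 CPM (SD, n = 3, 2, 3 and 2). Ehhadh rose and fell with an amplitude of 0.79 and a fitted peak at ZT19.6 (adjusted p = 0.0274, edgeR). The call rested on every library of ZT6 and ZT18: without ZT6A, ZT6B, ZT18A or ZT18B, adjusted p was 0.0545, 0.103, 0.121 or 0.0678, with amplitudes of 0.72 to 0.88. Without both ZT18 libraries the amplitude was 0.71 (adjusted p = 0.252, edgeR). With the index digit as a block it was 0.57 (adjusted p = 0.181), which also ends the call. Both of these fits draw the wave from ZT0, ZT6 and ZT12 alone, so they cannot test a wave over all times.

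These 2 of 7 members had a called rhythm, against 458 of 8908 genes (5.14%) in all. The members were chosen with earlier results of these data known, so the 2 shares were not tested against each other. The median amplitude over all genes was 0.25. A test for any difference among the 4 times called the same 2 members, Cpt1a with adjusted p = 0.000751 and Ehhadh with adjusted p = 0.0413 (edgeR), against 6.58% of all genes; Ehhadh lost this call too when ZT12A (adjusted p = 0.0715) or ZT12C (0.0642) was left out, and without any 1 of the ZT6 and ZT18 libraries (0.105 to 0.192).

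**Figure D1:**
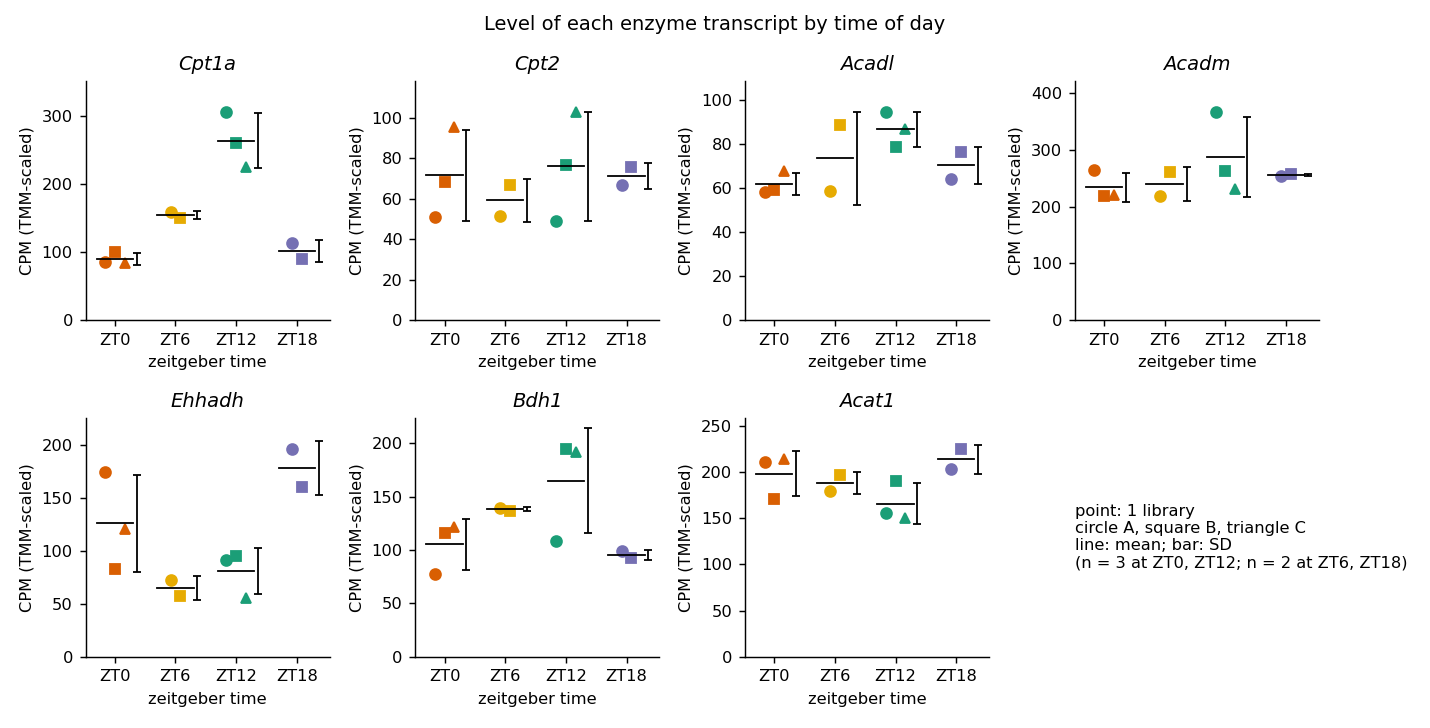
CPM of each of the 7 transcripts (vertical axes, from 0) by zeitgeber time, with 1 point per library, a line at the mean and a bar of 1 SD beside it. The ZT12 points of Cpt1a (225 to 306) lie above all its other points, and the ZT18 points of Ehhadh (161 and 197) lie above its ZT6 and ZT12 points.

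Bdh1 had its highest single levels at ZT12 as well, but with a wide spread. The ZT0 libraries held 77.8, 116 and 122 CPM, the ZT6 libraries 140 and 137, the ZT12 libraries 108, 195 and 192, and the ZT18 libraries 98.7 and 92.3 CPM. ZT12A was far below ZT12B and ZT12C and overlapped the ZT0 libraries. The amplitude of 0.42 did not pass (adjusted p = 0.165, edgeR). With the index digit as a block it was 0.34 and passed (adjusted p = 0.0234, edgeR). The ZT18 libraries share their digit with no other library, so that fit draws on ZT0, ZT6 and ZT12 alone. It cannot test a wave over all times. With the letters as a block the amplitude was 0.42 and did not pass (adjusted p = 0.0726).

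Acadl was between 58.4 and 67.7 CPM in the ZT0 libraries and between 78.8 and 94.6 CPM in the ZT12 libraries, which did not overlap. Its ZT6 libraries, at 58.6 and 88.7 CPM, spanned nearly that whole range, and its ZT18 libraries held 64.3 and 76.4 CPM. The amplitude was 0.24 (adjusted p = 0.289, edgeR). For Acadm, 9 of the 10 libraries lay between 218 and 264 CPM, and ZT12A stood apart at 366 CPM. Its amplitude was 0.15 (adjusted p = 0.634).

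Acat1 moved little: 150 to 191 CPM at ZT12, 180 and 196 CPM at ZT6, 171 to 214 CPM at ZT0, and 203 and 225 CPM at ZT18. The amplitude was 0.16 with a fitted peak at ZT21.6 (adjusted p = 0.596, edgeR). Cpt2 had the same order of libraries at ZT0 and ZT12, with A low (51.1 and 49 CPM), B between (68.1 and 76.5 CPM) and C high (95.6 and 103 CPM). All 4 times overlapped for Cpt2, and its amplitude was 0.14 (adjusted p = 0.859). The 2 carnitine palmitoyltransferases thus differed in their time courses in the values, although the difference between them was not tested.

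Between ZT0 and ZT12, 1 of 7 members was called, against 306 of 8908 genes (3.44%; 1.74% higher and 1.7% lower at ZT12). Cpt1a was higher at ZT12 by 1.55 ± 0.19 (log2 fold change ± SE, adjusted p = 0.000517, edgeR). Libraries with the same index digit gave differences of 1.82, 1.36 and 1.42 (log2(CPM + 1)) for the A, B and C pairs, so each pair had the same direction. The other differences were 0.65 ± 0.24 for Bdh1, 0.48 ± 0.19 for Acadl, 0.29 ± 0.21 for Acadm and 0.10 ± 0.27 for Cpt2. Acat1 had -0.26 ± 0.19 and Ehhadh -0.63 ± 0.28. Their adjusted p-values ran from 0.199 (Bdh1) to 0.912 (Cpt2).

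Bdh1 was higher at ZT12 in all 3 pairs of equal index digit, by 0.47, 0.74 and 0.65 (log2(CPM + 1)), and the fit with that digit as a block called it (0.63, adjusted p = 0.00953, edgeR). Leaving out ZT12A did so too (0.88, adjusted p = 0.0477). With the letters as a block, which make the same pairs of ZT0 and ZT12 libraries, Bdh1 was not called, either in all libraries (0.65, adjusted p = 0.0849) or in those of ZT0 and ZT12 alone (0.63, adjusted p = 0.0673). Acadl (0.69, 0.40 and 0.36) and Acadm (0.47, 0.27 and 0.071) were also higher at ZT12 in the A, B and C pairs. Ehhadh was lower in the A and C pairs (-0.92 and -1.10) and higher in the B pair (0.20). Of the 7 members, 2 (Cpt1a and Acadl) had ZT0 and ZT12 libraries that did not overlap, against 17% of all genes. Scaling by library size alone moved the median of all genes by 0.14 (log2) in this comparison, from -0.00075 to 0.13. Of the called genes 66.7% were then higher at ZT12, against 50.7% with TMM; Cpt1a was called under both, at 1.69 with library size alone.

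Between ZT6 and ZT18, 1 of 7 members was called, against 338 of 8908 genes (3.79%; 2.35% higher and 1.45% lower at ZT18). Ehhadh was higher at ZT18 by 1.45 ± 0.34 (log2 ± SE, adjusted p = 0.0337, edgeR), and the ZT18 mean was 2.75 times the ZT6 mean. Leaving out ZT6A, ZT6B, ZT18A or ZT18B ended the call each time, with differences of 1.64, 1.29, 1.30 and 1.59 (adjusted p = 0.172, 0.274, 0.210 and 0.131). Cpt1a had a log2 fold change of -0.61 ± 0.23 (adjusted p = 0.17), and Bdh1 had -0.53 ± 0.30 (adjusted p = 0.352). The other 4 members differed by at most 0.27 (log2) in size, and none passed. In 4 of 7 members (Cpt1a, Ehhadh, Bdh1 and Acat1) the ZT6 and ZT18 libraries did not overlap, but with 2 libraries a time this was so for 63.1% of all genes. The index digit of the ZT18 libraries cannot be told apart from time here. In cells with no haemoglobin UMI the Ehhadh difference was 1.44 (adjusted p = 0.0349).

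For position in the lobule, the cells of each library were ordered by 8 periportal and 8 pericentral landmark genes, none of them a member, and split into 3 equal zones. Cells of the outer zones were summed and compared with the library as a block. In simulated data, 3% of 100 genes with a zone difference of 0.25 (log2) were called, and 42% of 100 with 0.5. A member that was not called may therefore still differ between zones. The genes Glul, Sds and 8 other known zoned genes that did not serve for the order were all called in their known direction, with Glul at -4.05 and Sds at 3.13 (log2, periportal minus pericentral).

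Ehhadh, Bdh1 and Acat1 were higher in the pericentral zone, in 10 of 10 libraries each. Acat1 averaged 228 ± 29.7 CPM (SD, n = 10) in the pericentral zone, 184 ± 27.7 in the middle and 156 ± 27.8 in the periportal zone. Its libraries ran from 189 through a median of 226 to 265 CPM pericentrally and from 116.5 through 153 to 208 CPM periportally, so the 2 ends overlapped between libraries but never within one. The log2 fold change, periportal minus pericentral, was -0.54 ± 0.06 (SE, adjusted p = 2.5e-08, edgeR).

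Bdh1 averaged 155 ± 44.9 CPM (SD, n = 10) pericentrally, 122 ± 46 in the middle and 105 ± 30.4 periportally. Pericentral values ran from 95.4 through a median of 141 to 236 CPM and periportal values from 56.4 through 99.3 to 165 CPM. The difference was widest in ZT0A, at 110 against 56.4 CPM, and narrowest in ZT18B, at 95.4 against 86.8 CPM. The fold change was -0.58 ± 0.07 (log2 ± SE, adjusted p = 7.1e-08, edgeR).

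Ehhadh averaged 130 ± 57.3 CPM (SD, n = 10) pericentrally, 112 ± 52.8 in the middle and 90.2 ± 44.9 periportally. Pericentral values ran from 73.6 through a median of 106 to 225 CPM and periportal values from 36.8 through 79.5 to 174 CPM. Within libraries the pericentral zone was higher by as little as 92.6 against 79.6 CPM in ZT0B and by as much as 77.8 against 36.8 CPM in ZT6B. The fold change was -0.55 ± 0.08 (log2 ± SE, adjusted p = 6.5e-07, edgeR).

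These 3 of 7 members were called higher pericentrally, against 1134 of 8907 genes (12.7%), and none was called higher periportally, against 11.9%; 24.6% of all genes were called in either direction. In all 10 libraries the pericentral zone was the higher one for these 3 members and for 5.6% of all genes. Here too the members were chosen with earlier results known, and the shares were not tested against each other. The median difference over all genes was -0.0061. No alternative setting and no library left out ended any of the 3 calls, with differences of -0.64 to -0.50 for Acat1, -0.68 to -0.51 for Bdh1 and -0.65 to -0.46 for Ehhadh.

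The 4 members of mitochondrial fatty acid entry and dehydrogenation were not called between zones. Acadm was higher pericentrally in 7 of 10 libraries, at 282 ± 58.1 CPM (SD, n = 10) against 246 ± 43, with a fold change of -0.19 ± 0.07 (log2 ± SE, adjusted p = 0.0528, edgeR). It crossed the threshold under 9 of 22 other settings, among them cells with at least 3000 UMIs (-0.29, adjusted p = 0.0244), and without ZT0B, ZT18A or ZT18B (adjusted p = 0.0452, 0.0224 and 0.0337). Cpt2 was higher pericentrally in 8 of 10 libraries, at 75 ± 14.8 against 65.6 ± 20.7 CPM, with -0.20 ± 0.08 (adjusted p = 0.0791). Leaving out ZT12C or ZT18B made it a call (adjusted p = 0.0430 and 0.0254).

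Acadl held 78.1 ± 17.9 CPM (SD, n = 10) pericentrally and 72.8 ± 13.1 periportally, a fold change of -0.08 ± 0.08 (log2 ± SE, adjusted p = 0.509, edgeR). Cpt1a held 152 ± 72.2 and 167 ± 93.9 CPM, with SDs taken over all 4 times, and its fold change was 0.09 ± 0.07 (adjusted p = 0.449). Scaling by library size alone moved the median of all genes by -0.099 between the zones. Of the called genes 27.8% were then higher periportally, against 48.3% with TMM. Under that scaling 5 members were called pericentral, with Acadm at -0.29 and Cpt2 at -0.30 added, and Cpt1a turned to -0.014 (adjusted p = 0.925).

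**Figure D2:**
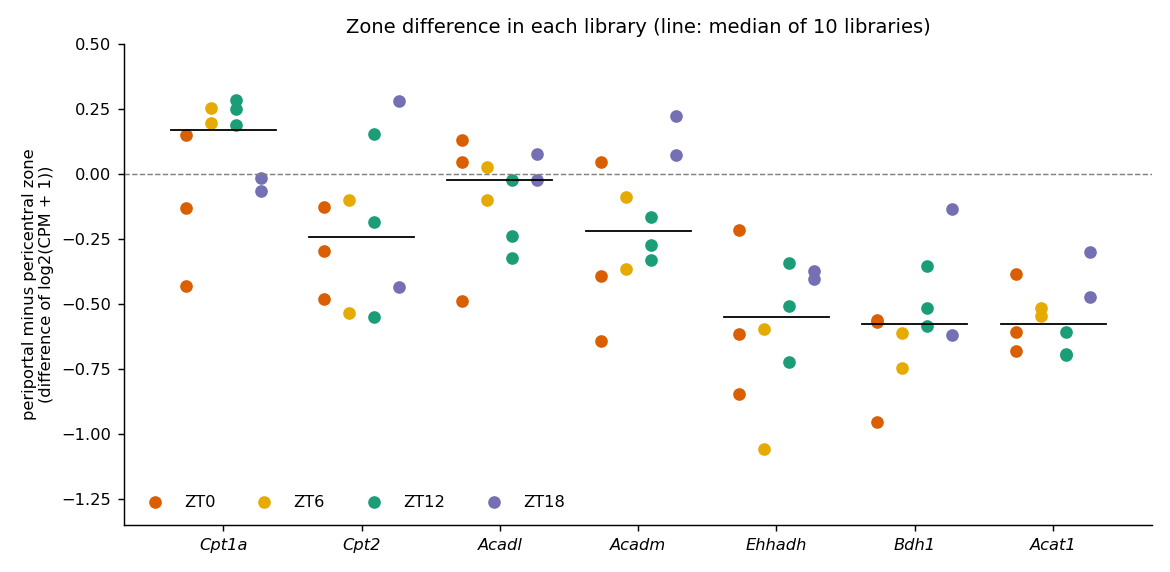
Difference between the periportal and the pericentral zone, in log2(CPM + 1) (vertical axis), for the 7 transcripts, with 1 point per library coloured by time and a line at the median of 10 libraries. All points of Ehhadh, Bdh1 and Acat1 lie below 0. Those of Cpt1a lie above 0 at ZT6 and ZT12, just below 0 at ZT18 and on both sides of 0 at ZT0.

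When the order was split into 8 layers, layer 1 at the central end, the 3 pericentral members fell over the lobule in uneven steps. Acat1 went from 252 ± 46.2 CPM (SD, n = 10) in layer 1 to 154 ± 31.2 in layer 8, a ratio of 1.64. Bdh1 went from 160 ± 48.4 CPM in layer 1 to its lowest mean of 104 ± 29.2 in layer 7, a ratio of 1.55. Ehhadh went from 134 ± 64.5 to 88.2 ± 44 CPM in layer 8, a ratio of 1.52. Each fell at 6 of the 7 steps between neighbouring layers.

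The layer profiles of the other members were flatter. The highest and lowest layer means differed by a ratio of 1.37 for Acadl, 1.30 for Acadm, 1.24 for Cpt1a and 1.23 for Cpt2. Acadl, Acadm and Cpt2 had their highest layer mean in layer 1, Cpt1a in layer 7. These are descriptions of the layer means and were not tested.

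No member differed between the middle zone and the mean of the outer zones (0 of 7, against 59 of 8894 genes or 0.663%, of which 0.551% higher and 0.112% lower in the middle; edgeR), and DESeq2 called none either. At an unadjusted p under 0.05 there were 2 of 7, against 725 of 8894 genes. They were Acadm with a log2 fold change of -0.16 ± 0.05 (adjusted p = 0.241, edgeR) and Acadl with -0.12 ± 0.06 (adjusted p = 0.595).

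**Figure D3:**
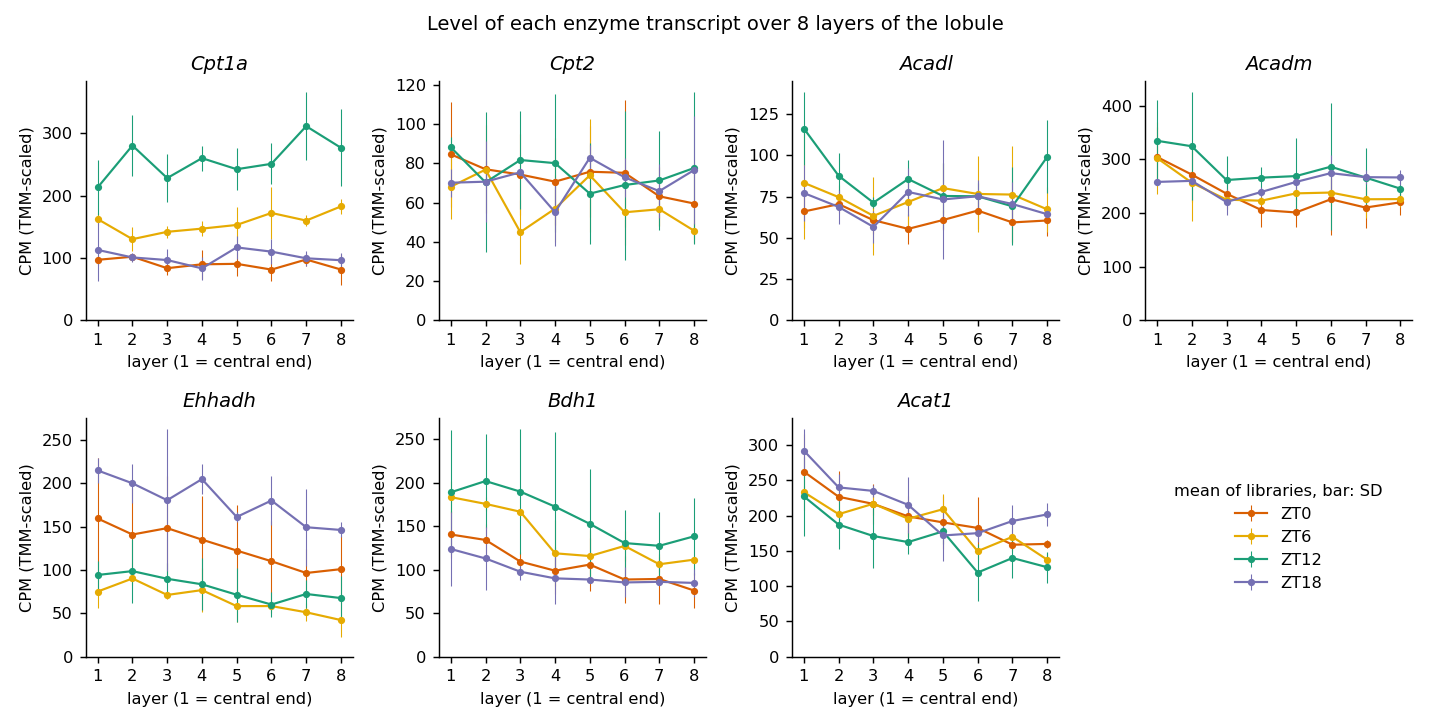
Mean CPM (vertical axes, from 0) of each transcript in 8 layers of the lobule, from the central end (1) to the portal end (8), 1 line per time, with bars of 1 SD over 3 libraries (ZT0, ZT12) or 2 (ZT6, ZT18). Acat1 falls from 252 to 154 CPM over all libraries, and the mean of Cpt1a at every layer is highest at ZT12 and next highest at ZT6, while its ZT0 and ZT18 lines cross.

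Zone differences were then compared between times of day. Acat1 was pericentral at each time, with mean differences (log2(CPM + 1), periportal minus pericentral) of -0.56 ± 0.15, -0.53 ± 0.023, -0.66 ± 0.050 and -0.39 ± 0.12 for ZT0, ZT6, ZT12 and ZT18 (SD, n = 3, 2, 3 and 2). For Bdh1 they were -0.70 ± 0.22, -0.68 ± 0.097, -0.49 ± 0.12 and -0.38 ± 0.34 in the same order. For Ehhadh they were -0.56 ± 0.32, -0.83 ± 0.33, -0.52 ± 0.19 and -0.39 ± 0.021. The ZT18 mean was the one nearest to 0 in each of the 3 genes.

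Ehhadh kept its order of times at both ends of the lobule. For ZT0, ZT6, ZT12 and ZT18 its pericentral means were 150 ± 61.2, 80.8 ± 4.29, 95.5 ± 20.2 and 202 ± 32.4 CPM (SD, n = 3, 2, 3 and 2). Its periportal means were 99.6 ± 34.7, 45.9 ± 12.9, 67.3 ± 20 and 155 ± 27 CPM. At each end ZT18 was highest and ZT6 lowest.

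Cpt1a kept its order of times too, with ZT0 lowest, then ZT18 and ZT6, and ZT12 highest at each end. Its pericentral means, in the same order of times, were 94.1 ± 0.851, 146 ± 0.150, 246 ± 51.4 and 103 ± 16.1 CPM (SD, n = 3, 2, 3 and 2). The periportal means were 86.7 ± 17.7, 171 ± 4.75, 290 ± 50.4 and 100 ± 13.1 CPM. The zone differences were -0.14 ± 0.29, 0.23 ± 0.041, 0.24 ± 0.049 and -0.041 ± 0.036 (log2(CPM + 1)).

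The test of whether rhythm depends on zone called 0 of 7 members with edgeR, against 3 of 8907 genes (0.0337%), and DESeq2 called none. At an unadjusted p under 0.05 there was 1 of 7, against 541 of 8907 genes. It was Cpt1a, whose zone difference had a 24-h amplitude of 0.24 (log2, adjusted p = 0.795, edgeR). The adjusted p-values of the other members ran from 0.908 (Acadm) to 0.997 (Acadl). At this depth the fewest UMIs behind an outer zone of 1 library were 105 for Cpt1a, 32 for Ehhadh and 24 for Cpt2. The size of zone-dependent rhythm that this test could detect was not measured.

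The rest of the pathway was read from lists of known genes that were drawn up with earlier results of these data known. Their counts describe these lists and were not tested as sets. Of all genes, 12.7% were called higher pericentrally, 11.9% higher periportally and 5.14% rhythmic, and each count below is to be read beside these shares. In the carnitine shuttle, 3 of 5 measured genes were called between the zones, all higher pericentrally, with a list median of -0.28. They were Crat, which makes acetylcarnitine (-0.94 ± 0.15, log2 ± SE), the peroxisomal transferase Crot (-0.52 ± 0.07) and the carrier Slc25a20 (-0.28 ± 0.08), which exchanges acylcarnitine between the reactions of Cpt1a and Cpt2. Cpt1a was the only gene of this list with a called rhythm (1 of 5).

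In the list drawn up for mitochondrial beta-oxidation, 6 of 17 genes were called higher pericentrally and 0 periportally, with a median of -0.12. They were led by the enoyl-CoA isomerase Eci2 (-0.88 ± 0.07), the hydroxyacyl-CoA dehydrogenase Hadh (-0.39 ± 0.07) and Eci1 (-0.30 ± 0.08), and included Hadha, the alpha subunit of the trifunctional protein (-0.23 ± 0.07). The very-long-chain dehydrogenase Acadvl had 0.11 ± 0.07 (adjusted p = 0.309, edgeR) and, like Acadl and Acadm, was not called. In time, 1 of 17 was called rhythmic, against 5.14% of all genes. It was Eci2, with an amplitude of 0.71 and a fitted peak at ZT9.90 (adjusted p = 0.00828, edgeR). Eci2 was placed in this list by choice, and where in the cell its enzyme acts was not measured. The ZT0, ZT6, ZT12 and ZT18 means of Eci2 were 75.1 ± 8.43, 151 ± 37.7, 173 ± 41 and 90.1 ± 1.30 CPM.

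The peroxisomal list of 15 genes had 8 called higher pericentrally and 1 periportally, with a median of -0.35. The thiolase Acaa1b (-1.49 ± 0.07) and the peroxisome proliferation factor Pex11a (-1.17 ± 0.11) had the widest differences, and Ehhadh had -0.55. The reductase Pecr was higher periportally (0.22 ± 0.07). Ehhadh was the 1 called rhythm of the 15, against 5.14% of all genes.

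In the list of ketone body genes, 4 of 9 measured genes were called higher pericentrally and 3 periportally, with a median of 0.0066. Acat1 and Bdh1, which act at the first and the last step of ketogenesis, were among those higher pericentrally, as was the monocarboxylate transporter Slc16a7 (-1.01 ± 0.13). Higher periportally were the transporter Slc16a6 (2.22 ± 0.23), the dehydrogenase Bdh2 (2.13 ± 0.19) and the transporter Slc16a1 (0.35 ± 0.10). Bdh1 and Bdh2 thus lay on opposite sides of the lobule: Bdh2 held 5.82 ± 3.74 CPM (SD, n = 10) pericentrally and 28.3 ± 5.23 periportally. Oxct1, the enzyme with which other tissues use ketone bodies, had 33 UMIs over all libraries and was below the filter.

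In time, 2 of 9 ketone body genes were called rhythmic, against 5.14% of all genes, and neither is a member. Aacs, which returns acetoacetate to lipid synthesis in the cytosol, had an amplitude of 1.61 and a fitted peak at ZT17.7 (adjusted p = 0.00359, edgeR). The means of Aacs were 39.2 ± 20.2, 13.3 ± 6.28, 48.6 ± 8.83 and 121 ± 14.2 CPM for ZT0, ZT6, ZT12 and ZT18. Slc16a1 had an amplitude of 0.57 and a fitted peak at ZT22.4 (adjusted p = 0.0229).

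**Figure D4:**
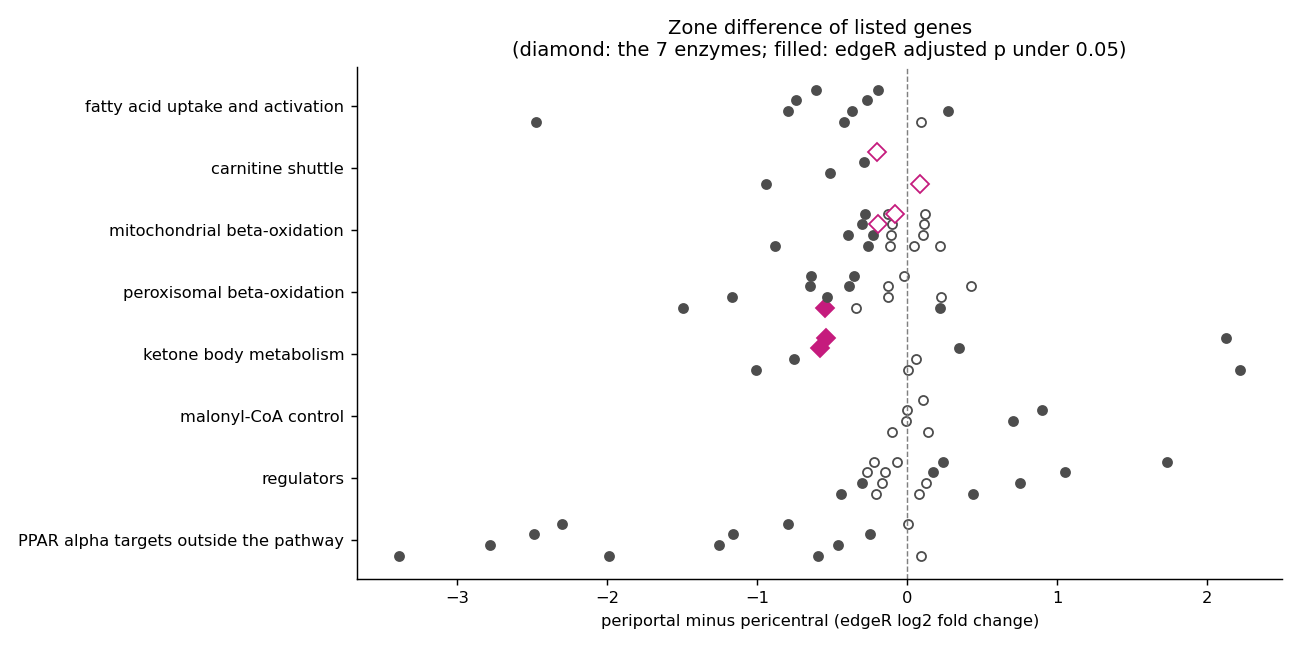
Log2 fold change between the periportal and pericentral zones (horizontal axis) for the measured genes of 8 lists, with diamonds for the 7 enzymes, circles for other genes, and filled marks for an adjusted p under 0.05 (edgeR). Most filled marks of the fatty acid and peroxisomal lists lie left of 0, whereas ketone body genes lie on both sides, from -1.01 (Slc16a7) to 2.22 (Slc16a6).

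Upstream of the members, 8 of 10 genes of fatty acid uptake and activation were called higher pericentrally and 1 periportally, with a median of -0.39. The fatty acid translocase Cd36 had the widest difference (-2.47 ± 0.26), followed by the binding protein Fabp1 (-0.79 ± 0.10) and the medium-chain acyl-CoA synthetase Acsm3 (-0.74 ± 0.09). The exception was Slc27a5, a bile acid and fatty acid CoA ligase (0.27 ± 0.07). No gene of this list had a called rhythm by edgeR (0 of 10, with 1 at an unadjusted p under 0.05, against 1816 of 8908 genes).

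Among 7 genes that set or sense malonyl-CoA, the inhibitor of the Cpt1a enzyme, 2 were called higher periportally and 0 pericentrally. The shares of all genes were 11.9% and 12.7%. The 2 called genes were the acetyl-CoA carboxylase Acaca (0.90 ± 0.08) and the AMP kinase subunit Prkab1 (0.70 ± 0.17). None was called rhythmic (0 of 7 by edgeR, with 2 at an unadjusted p under 0.05, against 1816 of 8908 genes). Between ZT0 and ZT12, 1 of 7 was called, against 3.44% of all genes. It was the mitochondrial carboxylase Acacb, which was lower at ZT12 (-1.44 ± 0.34, adjusted p = 0.0302, edgeR), the time at which Cpt1a was highest. Acacb was named after its value was seen.

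Of 16 regulators, 6 were called higher periportally and 2 pericentrally. The coactivators Ppargc1a (1.73 ± 0.16) and Ppargc1b (0.76 ± 0.20) and the nuclear receptor Esrra (1.06 ± 0.12) were higher periportally. Ppara, which encodes PPAR alpha, was higher pericentrally (-0.44 ± 0.12), at 47.4 ± 14.1 against 35.9 ± 13.5 CPM (SD, n = 10), as was Lpin2 (-0.30 ± 0.07). Ppara therefore had the same side as Ehhadh, Bdh1 and Acat1, and Ppargc1a the other.

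In time, 5 of 16 regulators were called rhythmic, against 5.14% of all genes. Lpin1, a coactivator and phosphatidate phosphatase, had an amplitude of 1.87 and a fitted peak at ZT11.6 (adjusted p = 0.000320, edgeR), with 45.7 ± 2.70 CPM at ZT0 and 601 ± 197 at ZT12. Lpin2 (0.72, ZT9.94) and Ppargc1a (0.69, ZT10.1) also passed, as did Foxo1 (0.64, ZT11.7) and Esrra (0.56, ZT14.3). All 5 were called higher at ZT12 than at ZT0, as Cpt1a was, and their fitted peaks lay within 4 h of that of Cpt1a, at ZT10.6. Ppara had an amplitude of 0.29 and was not called (adjusted p = 0.502), with 29.7 ± 6.81 CPM at ZT0 and 58.7 ± 2.79 at ZT6.

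PPAR alpha targets outside the pathway had the strongest pericentral side, with 11 of 13 measured genes called higher there, 0 periportally and a median of -1.16. Fabp1 is also in the list of fatty acid uptake and activation. The acyl-CoA thioesterase Acot1 (-3.39 ± 0.16) and the fatty acid omega-hydroxylases Cyp4a10 (-2.78 ± 0.14) and Cyp4a14 (-2.48 ± 0.13) had the widest differences. The Acot and Cyp4a genes are families of close copies, between which the counting could split reads. The rhythm test called 2 of 13: Acot3 (1.62, ZT10.1, adjusted p = 0.0218, edgeR) and the lipid droplet protein Plin2 (0.57, ZT1.41, adjusted p = 0.0234). Acot3 had 165 UMIs in all, from 1 to 46 per library. Its mean at ZT0 was 0.95 ± 1.06 CPM (SD, n = 3), so its amplitude rests on low counts.

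Cyp4a10 and Ehhadh, both known targets of PPAR alpha, went opposite ways between ZT6 and ZT18. Ehhadh was called higher at ZT18 (1.45) and Cyp4a10 lower (-1.89 ± 0.45, log2 ± SE, adjusted p = 0.0338, edgeR), and Cyp4a10 was named after its value was seen. Cyp4a10 held 222 ± 121 CPM (SD, n = 2) at ZT6 and 60 ± 9.29 at ZT18. Both comparisons rest on the same 4 libraries.

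Genes with the most similar pattern were ranked by Pearson's r over 30 points (10 libraries times 3 zones) of log2(CPM + 1) among 4335 genes; zones of a library share its depth and time, so r is a description. Closest to Cpt1a were Upp2, uridine phosphorylase (r = 0.944), N4bp2l1 (0.924) and Tef, a transcription factor of the circadian output (0.923). For Ehhadh they were Cacybp (0.876), Rnf5, an E3 ubiquitin ligase (0.856), and Hsp90aa1, the heat-inducible HSP90 chaperone (0.849). Bdh1 was most like the phospholipid exporter Abcb4 (0.866), Gne of sialic acid synthesis (0.855) and Nploc4 (0.848).

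The nearest genes of Acat1 were the biliverdin reductase Blvrb (0.849), the taurine-synthesis enzyme Csad (0.849) and toporsos (0.838). For Acadm they were Naa50 (0.825), the translation factor Eif5 (0.821) and Atp13a3 (0.812), and for Cpt2 the ribosomal gene Rps28 (0.822), the carboxylesterase Ces1c (0.812) and Acsm1 (0.790). Acadl had the lowest best match, the glycerol-phosphate acyltransferase Gpat4 (0.777), then Pim3 (0.765) and the haem synthesis enzyme Alas1 (0.763). No member was among the 3 nearest genes of another member.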

How the data were processed

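The authors deposited a table of UMI counts for each of the 10 libraries, with genes in rows and cells in columns; the values are whole numbers. Per the labels' protocols, the 10x Chromium single-cell chemistry was the 3' kit v2. Cell Ranger and the builds mm10 and hg19 are named in the submitters' processing notes, without their roles. The filter on cells is not given in the sources used here, nor is how doublets were treated; dropping the top 5% of cells by UMIs was an alternative. Barcodes shared between libraries could not be counted, because columns carry no barcodes. No pair of libraries of the same time was a copy, and pairs across times were not checked in this way.

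UMIs were summed by library, or by library and zone, scaled by TMM and tested by quasi-likelihood in edgeR 4.0.16 under R 4.3.3, for genes whose mean reached 3 CPM; DESeq2 1.42.0 was an alternative. Rhythm was tested with a cosine and a sine of 24 h, times with 1 mean each, and zones with the library as a block. All 10 libraries entered each fit. Each SE was derived from the log2 fold change and its F statistic. The scripts were tested on simulated data. Values on the log2(CPM + 1) scale understate changes of low genes. Precision is limited by the 2 or 3 libraries per time.

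The members and gene lists were chosen with earlier results of these data known. Named by rule were the 7 members, 8 fixed context genes (Ppara, Slc25a20, Acadvl, Hadha, Oxct1 and others not reported here), up to 3 genes per list and direction called between zones, up to 3 called rhythmic, and the 3 genes most like each member. Letters pair ZT0 with ZT12 libraries: same-letter deviations from the group means correlated across genes at 0.239, 0.428 and 0.485, and these pairs share the index digit. Other same-letter pairs reached at most 0.11.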

Additional observations from a re-analysis of the deposited data

Results flagged for a closer look

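The zone difference of Cpt1a is log2(CPM + 1) in the periportal zone less that in the pericentral zone. Its sign at ZT18 was opposite to that at ZT6 and ZT12, in all libraries of those times. The difference averaged 0.226 at ZT6 and 0.242 at ZT12, where all 5 libraries were higher periportally. At ZT18 it averaged -0.041, and both libraries were slightly higher pericentrally. Scaling by library size alone kept these signs in each of the 7 libraries of ZT6, ZT12 and ZT18. At ZT0 the signs were mixed, at -0.13, 0.15 and -0.43 in libraries A, B and C. How many of all genes had opposite signs of this kind was not counted, here or for Acadm below. The pairwise difference was not tested by itself; the test of zone-dependent rhythm gave adjusted p = 0.795 (edgeR), and both ZT18 differences were within 0.07 of 0.

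Acadm had the reverse arrangement. Its zone difference averaged -0.229 at ZT6 and -0.256 at ZT12, with all 5 libraries higher pericentrally, and 0.146 at ZT18, with both libraries higher periportally. With library size alone, 1 of the 2 ZT18 libraries turned to the pericentral side. The ZT0 libraries had mixed signs with TMM, at -0.39, 0.045 and -0.64 in A, B and C. The pairwise difference was again not tested, and the zone-dependent rhythm had adjusted p = 0.908 (edgeR). In both genes the ZT18 libraries also differ from the others in their sample index digit, which cannot be told apart from time.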

How the results depend on the processing

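Each value was recomputed under up to 23 other settings. Cpt1a kept its rhythm call (amplitude 0.76 to 0.91) and its rise from ZT0 to ZT12 (1.43 to 1.69) under all of them. Without both ZT18 libraries, a cosine and a sine fit the means of ZT0, ZT6 and ZT12 exactly. The rhythm test is then a test for any difference among those times. With the index digit as a block, the ZT18 libraries, which alone have their digit, add nothing to the wave. Neither setting can therefore test a 24-h wave over all times. The number of members with a rhythm was 2, and 1 without both ZT18 libraries; leaving out single libraries gave 1 to 2. The number differing among the 4 times was likewise 2, and 1 without both ZT18 libraries, with 1 to 2 on leaving out single libraries. Between ZT12 and ZT0, 1 member was called, 2 with the index digit as a block, and 1 to 2 without single libraries. Between ZT18 and ZT6 it was 1, and 0 to 1 without single libraries. Between zones it was 3, 5 with library size alone, and 3 to 5 without single libraries. For the midlobular difference and the zone-dependent rhythm the count was 0 under every setting. A replicate block on the letters, which pair ZT0 with ZT12, gave Cpt1a 1.54 (adjusted p = 0.000183) and no member's call changed, nor did it with ZT0 and ZT12 alone (1.54, adjusted p = 0.00139), a setting chosen after seeing the data, as was leaving out cells with a haemoglobin UMI. Over all genes the block gave 504 calls in place of 306.

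Some uncalled differences changed sign. On leaving out single libraries, Cpt2 between ZT12 and ZT0 ran from -0.17 to 0.36, Acadm between ZT18 and ZT6 from -0.034 to 0.22, Acadl there from -0.33 to 0.26, and the midlobular difference of Cpt2 from -0.024 to 0.018. Cpt1a between zones was -0.014 with library size alone. The midlobular difference of Cpt2 was 0.00061 with no filter, 0.028 without the top 5% of cells and 0.012 with even-numbered landmarks. With odd-numbered landmarks it was -0.072 for Ehhadh and 0.0015 for Acat1. The cause was not tested.

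All-gene counts moved by over 1.5 times as follows. Rhythm gave 458 genes, 792 with DESeq2, 710 with no filter, 283 at a mean of 20 CPM, 749 with the block, 231 without both ZT18 libraries and 228 at the lowest without 1. Any difference gave 586, and 1071, 380, 989, 231 and 245 likewise, DESeq2 aside. ZT12 against ZT0 gave 469 with no filter and 767 with the index digit as a block. ZT18 against ZT6 gave 338, then 595 with no filter, 199 at 20 CPM, 730 with the block and 50 to 80 without 1 library of either time. Zones gave 2194, and 1211 with cells of at least 3000 UMIs. Midlobular calls ran from 27 to 133 and zone-dependent rhythms from 0 to 42. The index digit could not be fitted for ZT18 against ZT6 or the 4-time test.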
